A study of Mus musculus with 2 samples.

Results

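The miRNA genes described here, known from mesenchyme, cartilage and axon guidance loci, are 8 of the 1973 miRNA genes counted in the stomach of mouse embryos. They were taken by gene symbol and are described in 3 sets. The Dnm-hosted set holds Mir199a-1, Mir199a-2, Mir199b and Mir214. The cartilage pair is Mir140 and Mir455, and the Slit-hosted pair is Mir218-1 and Mir218-2. Each was matched once in both count tables by its Ensembl identifier.

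Total RNA of whole stomachs at embryonic day 15.5, strain B6NCrl and mixed sex, was sequenced after selection of fragments under 30 nt. Stomachs of 62 embryos were pooled for replicate 2, and those of 78 for replicate 1. No allele, agent or second condition is given, so comparisons are between genes in a library and between the pools. All miRNA genes together had 6675498 sense-strand counts in replicate 2, against 5988677 in replicate 1. CPM is a gene's count scaled to a common total of such counts, and 0 counts leave room for up to 0.449 CPM in replicate 2 and 0.501 CPM in replicate 1. These limits, and the intervals below, cover counting error only, because reads are not independent molecules. In RNA of a whole organ, fewer cells of a type and less RNA per cell cannot be told apart.

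A miRNA gene is transcribed as a hairpin that is cut into short mature strands, named 5p and 3p after their side of the hairpin. A mature strand finds its messenger RNAs mainly through its seed, bases 2 to 8. The miR-199 and miR-214 genes lie on the strand opposite to dynamin genes and are known from embryonic mesenchyme and from fibroblasts. Mir140 and Mir455 are known from cartilage, where both are linked to the chondrocyte factor Sox9. The miR-218 genes lie in introns of Slit2 and Slit3, whose proteins guide axons and migrating cells, and are known from motor neurons and from the vasculature.

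The mature sequences are shown because they decide which of these genes can be told apart by their reads. All 8 genes had an entry in RefSeq (build GRCm38.p6), with 14 entries that come to 10 distinct sequences and 10 distinct seeds. The sequences used held no entry for miR-199b-5p and miR-140-5p, so these strands were not searched for copies or seeds. Sequences run 5′ to 3′ and capitals mark the seed.
miR-199a-5p (Mir199a-1 and Mir199a-2): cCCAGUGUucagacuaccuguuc
miR-199a-3p (Mir199a-1 and Mir199a-2) and miR-199b-3p (Mir199b): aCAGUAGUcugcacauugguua
miR-214-5p (Mir214): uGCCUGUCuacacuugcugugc
miR-214-3p (Mir214): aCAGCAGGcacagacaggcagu
miR-140-3p (Mir140): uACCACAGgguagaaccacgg
miR-455-5p (Mir455): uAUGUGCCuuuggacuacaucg
miR-455-3p (Mir455): gCAGUCCAcgggcauauacac
miR-218-5p (Mir218-1 and Mir218-2): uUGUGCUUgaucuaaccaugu
miR-218-1-3p (Mir218-1): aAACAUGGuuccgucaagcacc
miR-218-2-3p (Mir218-2): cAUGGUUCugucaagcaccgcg

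Of the 14 entries, 7 lay in the hairpin of 1 or more other GENCODE miRNA genes and 7 in no other of the 2202 hairpin names searched. The sequence of miR-199a-3p was found in all 3 miR-199 hairpins, and that of miR-199a-5p in both Mir199a copies. Around these arms the Mir199a-1 and Mir199a-2 hairpins were identical over runs of 27 bases on the 5p side and 26 bases on the 3p side. The miR-218 hairpins shared a run of 22 bases around miR-218-5p. Their 3p strands differ: over a gapless overlap of 19 bases, miR-218-1-3p and miR-218-2-3p had 1 mismatch and start 3 bases apart. The listed strands of Mir214, Mir140 and Mir455 were in no other hairpin.

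This bears on the counts. Reads that matched several places were kept by the authors as a line of their own, 27.0% of all reads in replicate 2 and 25.5% in replicate 1, and were not assigned to genes. Counts of Mir199a-1, Mir199a-2, Mir199b, Mir218-1 and Mir218-2 are therefore uncertain and may be too low. How many of the shared reads belong to them was not tested. These genes are not alike in this. For Mir199a-1 and Mir199a-2 every listed strand lies in another hairpin, so reads of exactly these strands match several places. For Mir199b the only listed strand, 3p, is shared as well. Mir218-1 and Mir218-2 each have a listed 3p strand that was found in no other hairpin. The tables give 1 count per hairpin, so 5p and 3p strands are not separated.

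Among the mature entries of the table, 5 other miRNA genes carried 1 of the printed seeds, and all 5 were near 0 on the sense strand. Mir761, whose miR-761 has the miR-214-3p seed, had 0 counts in both libraries, as did Mir496b, whose seed is that of miR-218-1-3p. Mir5129, with the miR-455-5p seed, had 2 counts in replicate 2 and 4 in replicate 1. Mir497b, with the miR-140-3p seed, had 1 and 2 counts, and Mir7002, with the miR-218-5p seed, 2 and 0. These seed-sharing genes were found by sequence and fall outside the rule for named genes.

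Together the 8 genes held 1.14% ± 0.0702 of the sense counts (SD, n = 2). In replicate 2 the share was 1.090%, with a 95% Wilson interval of 1.083 to 1.098, and in replicate 1 it was 1.190%, with an interval of 1.181 to 1.198. The Dnm-hosted set held 0.822% ± 0.0376, the cartilage pair 0.312% ± 0.0330 and the Slit-hosted pair 0.00609% ± 0.000393. Reads that match several places are not in these shares, so those of the Dnm-hosted and Slit-hosted sets may be too low. Mir214 alone made up 63.7% of the counts of the 8 genes in replicate 2 and 60.5% in replicate 1.

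All 8 genes reached 10 counts in each library, as did 369 of the 1973 genes. Mir214, Mir140, Mir455 and Mir199b averaged over 1000 CPM, a level that 99 genes reached. These 4 stood above the median of 126 CPM over the 369 detected genes, and the other 4 below it. By mean CPM, Mir214 ranked 31, Mir140 79, Mir455 80 and Mir199b 96. Mir199a-2 ranked 186, Mir218-2 231, Mir218-1 274 and Mir199a-1 289. Reads of strands shared with other hairpins were not assigned, so the miR-199 and miR-218 genes may rank too low.

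**Figure D1:**
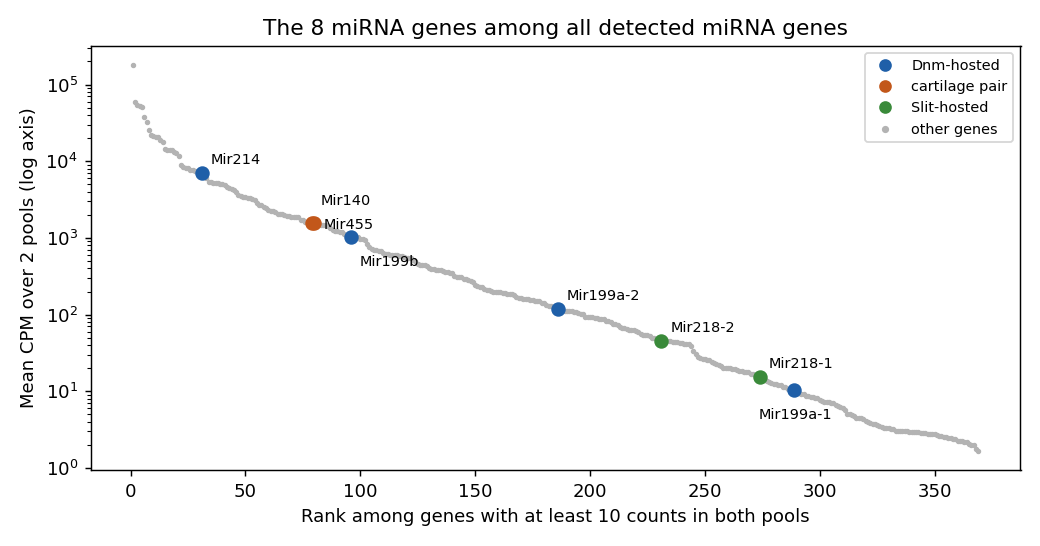
Mean CPM over the 2 pools on a log axis against rank, for the 369 genes with at least 10 counts in both pools; coloured points are the 8 genes and grey points the others. Mir214 stood at rank 31, Mir140, Mir455 and Mir199b between ranks 79 and 96, and the remaining 4 between ranks 186 and 289. Shared reads were not assigned, so the miR-199 and miR-218 genes may rank too low.

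The Dnm-hosted genes held both the highest and the lowest of the 8. Mir214 and Mir199a-2 lie on the plus strand of chromosome 1 (mm10, 162223368 to 162223477 and 162217814 to 162217923), with 5444 bases between them. In GENCODE M21 both hairpins are exonic in Dnm3os, a noncoding RNA transcribed against Dnm3, in each of its transcripts that spans them (2 for Mir214 and 3 for Mir199a-2). They are intronic and antisense to Dnm3 itself. Mir199b (chromosome 2, 32318460 to 32318569, plus strand) lies antisense in an intron of Dnm1, and Mir199a-1 (chromosome 9, 21496495 to 21496564, minus strand) antisense in an intron of Dnm2.

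Mir214 had 46391 counts in replicate 2 and 43084 in replicate 1, or 6949 and 7194 CPM. Mir199b, the copy on chromosome 2, had 5874 and 6980 counts, or 879.9 and 1166 CPM. Mir199a-2, the neighbour of Mir214 in Dnm3os, had 804 and 710 counts, or 120.4 and 119 CPM. Mir199a-1 was the lowest of the 8 by mean, with 59 and 72 counts, or 8.84 and 12.0 CPM. The order Mir214, Mir199b, Mir199a-2, Mir199a-1 was the same in both pools and their ranges did not overlap.

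Mir214 and Mir199a-2 share the host transcript. The ratio of their assigned counts was 57.7 in replicate 2 (95% exact interval 53.8 to 61.9) and 60.7 in replicate 1 (56.3 to 65.4). On the log2(CPM + 1) scale the difference was 5.88 ± 0.05 (SD, n = 2). Mir214 exceeded Mir199b by 2.80 ± 0.25 and Mir199b exceeded Mir199a-2 by 3.07 ± 0.30. Mir199a-2 had 13.6 times the counts of Mir199a-1 in replicate 2 (exact interval 10.5 to 18.1) and 9.86 times in replicate 1 (7.73 to 12.7). Mir214 is the 1 gene of this set whose listed strands are in no other hairpin. Every listed strand of Mir199a-1 and Mir199a-2 lies in another hairpin, so reads of exactly these strands match several places. The ratios to Mir214 therefore set genes side by side whose reads were not counted alike, and they do not give the relative levels of the mature strands. The same may hold for Mir199b over Mir199a-2, since a strand of Mir199b had no entry and was not searched. The part of unassigned shared reads in these ratios was not tested.

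**Figure D2:**
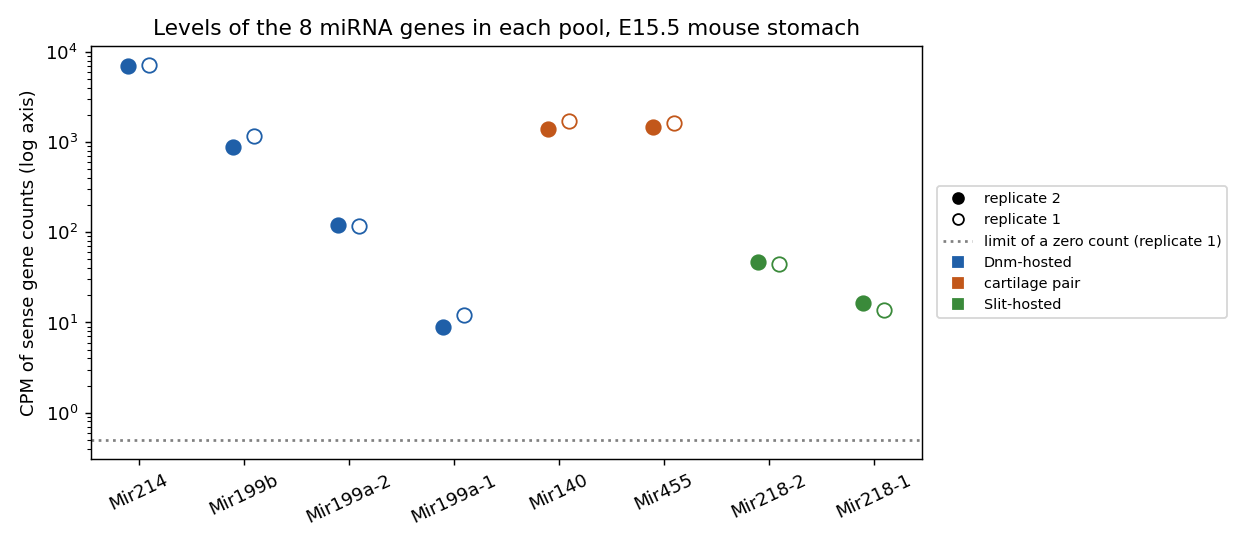
CPM of sense counts on a log axis for each of the 8 genes, with replicate 2 as a filled and replicate 1 as an open point; the dotted line is the limit of a zero count in replicate 1. Mir214 stood at 6949 and 7194 CPM and Mir199a-1 at 8.84 and 12.0 CPM, while Mir140 and Mir455 lay together between 1400 and 1721 CPM.

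The cartilage pair was measured at nearly the same level. Mir140 (chromosome 8, 107551244 to 107551313, plus strand) lies within Wwp2, a ubiquitin ligase gene, on the same strand; it is intronic in 3 of the 4 transcripts that span it and overlaps an exon of 1. Mir455 (chromosome 4, 63256851 to 63256932, plus strand) lies in an intron of Col27a1, which encodes a cartilage collagen. Mir140 had 9344 counts in replicate 2 and 10305 in replicate 1, or 1400 and 1721 CPM. Mir455 had 9893 and 9748 counts, or 1482 and 1628 CPM.

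Which of the pair was higher depended on the pool. The ratio of Mir140 to Mir455 was 0.945 in replicate 2 (95% exact interval 0.918 to 0.972) and 1.06 in replicate 1 (1.03 to 1.09). On the log2(CPM + 1) scale the differences were -0.08 and 0.08, with a mean of 0.00 ± 0.11 (SD, n = 2). They are the only neighbours in the order of the 8 genes whose ranges over the pools overlapped. Both stood above Mir199b, which Mir455 exceeded by 0.62 ± 0.19, and below Mir214, which exceeded Mir140 by 2.19 ± 0.18.

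The Slit-hosted copies had few assigned counts, though well above the limit of a zero count. Mir218-2 (chromosome 11, 35616816 to 35616925, plus strand) lies in an intron of Slit3 and Mir218-1 (chromosome 5, 48223942 to 48224051, plus strand) in an intron of Slit2, both on the strand of the host. Mir218-2 had 314 counts in replicate 2 and 266 in replicate 1, or 47.0 and 44.4 CPM. Mir218-1 had 111 and 82 counts, or 16.6 and 13.7 CPM. The ratio of Mir218-2 to Mir218-1 was 2.83 in replicate 2 (95% exact interval 2.27 to 3.54) and 3.24 in replicate 1 (2.52 to 4.21). On the log2(CPM + 1) scale Mir218-2 exceeded Mir218-1 by 1.54 ± 0.13 (SD, n = 2).

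Both copies give the same miR-218-5p, so reads of that strand match both hairpins. The level of miR-218-5p is therefore not given by these counts, and the order of the copies is uncertain. The step from Mir218-1 down to Mir199a-1 was small. Their CPM ranges did not overlap, but the ratio of their counts was 1.88 in replicate 2 (exact interval 1.36 to 2.63) and 1.14 in replicate 1 (0.820 to 1.59). In replicate 1 the 2 genes did not differ beyond counting error.

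**Figure D3:**
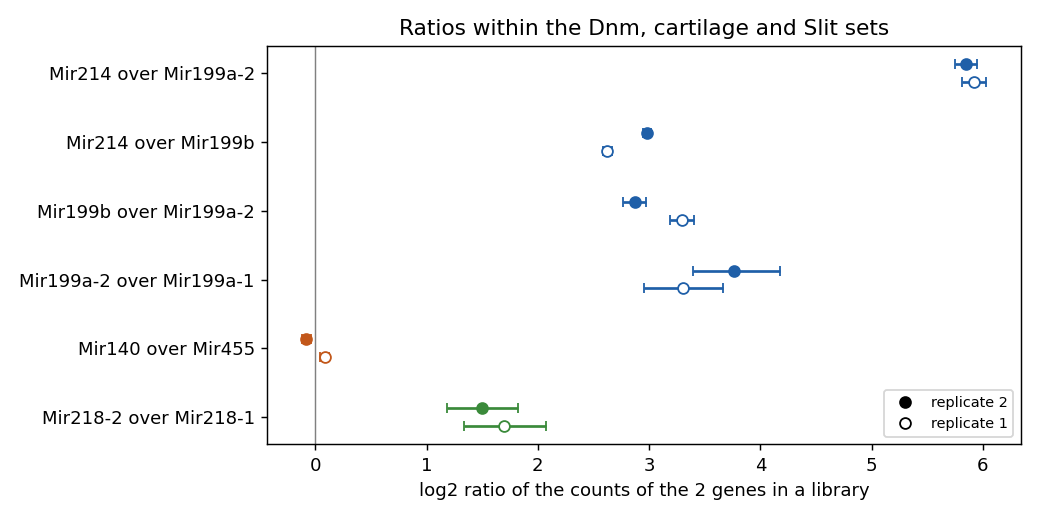
log2 ratio of the counts of 2 genes in the same library, with replicate 2 filled and replicate 1 open; bars are 95% exact intervals for counting error. Mir214 exceeded Mir199a-2 by close to 6, Mir218-2 exceeded Mir218-1 by about 1.5, and Mir140 over Mir455 lay on opposite sides of 0 in the 2 pools.

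Other detected genes with a shared mature sequence give the setting for these gaps. Of the 369 detected genes, 337 (91.3%) had a mature entry, and 23 pairs of them shared a listed sequence exactly. The 4 pairs within the 8 genes differed by 6.48 ± 0.00 for Mir199b over Mir199a-1, 3.41 ± 0.30 for Mir199a-2 over Mir199a-1, 3.07 ± 0.30 for Mir199b over Mir199a-2 and 1.54 ± 0.13 for Mir218-2 over Mir218-1. These were the first, the sixth, the seventh and the fourteenth in size, and the median of the 23 was 1.86 (range 0.02 to 6.48). That median includes these 4 pairs. Copies without enough assigned counts to be detected are not among the 23 pairs. The pairs overlap in their genes, so this is a description, and it fixes nothing about single copies. Every listed strand of Mir199a-1 and Mir199a-2 lies in another hairpin, but a strand of Mir199b had no entry and was not searched. The gaps of Mir199b over Mir199a-1 and Mir199a-2 may therefore set genes side by side whose reads were not counted alike.

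**Figure D4:**
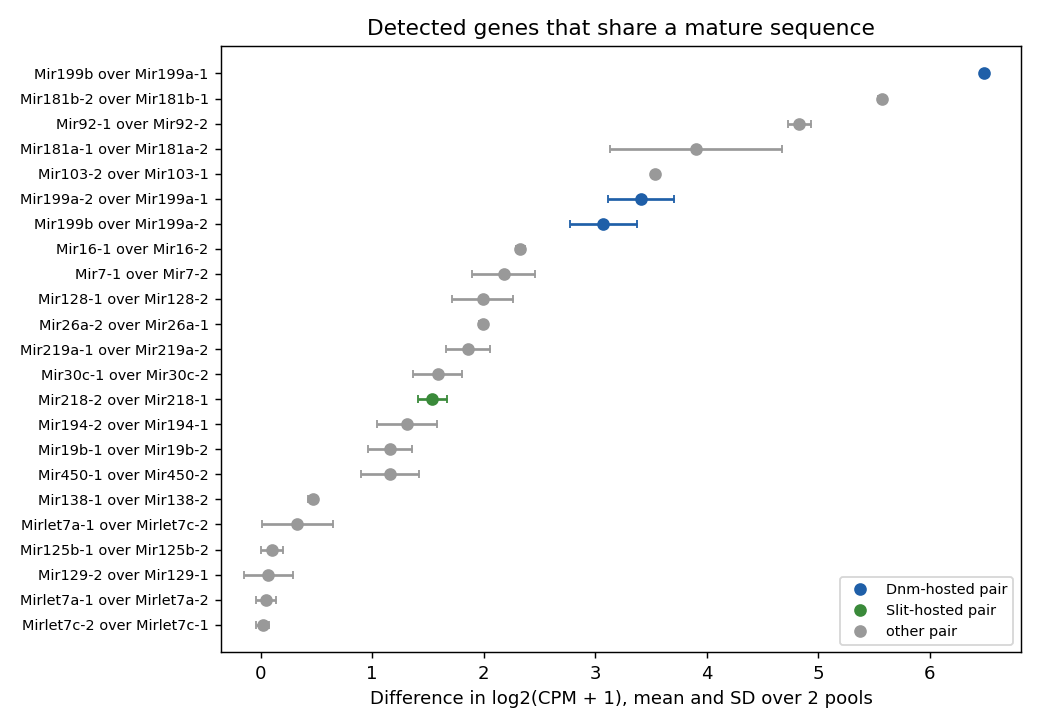
Difference in log2(CPM + 1) for 23 pairs of detected genes that share a mature sequence, as mean and SD over 2 pools. The miR-199 pairs (blue) lay between 3.07 and 6.48, above the median of 1.86, and the miR-218 pair (green) at 1.54. A strand of Mir199b had no entry, so its reads may not be counted like those of the Mir199a copies.

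The pools were compared for the 8 genes beside all genes tested. Over all genes with at least 10 summed counts, an exact conditional binomial test compared replicate 2 with replicate 1, with Benjamini-Hochberg adjustment and a 2-fold limit. None of the 8 was called, against 27 of 466 genes, or 5.79%, in the background. With 8 genes, no call is close to that share and does not set them apart. The edgeR exact test called 0 of the 8 and 0.858% of all genes; at an unadjusted p under 0.05 the binomial test passed 4 of the 8, against 51.1% of all genes, and edgeR 0, against 6.22%. Both tests compare these 2 libraries, not conditions. The 27 calls were 24 lower and 3 higher in replicate 2. With DESeq2 size factors 22 genes were called, 16 lower and 6 higher.

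Without the fold limit, 4 of the 8 passed as lower in replicate 2, against 33.3% of all genes, and 0 passed as higher, against 13.1%. By sign alone 5 were lower and 3 higher. The 4 that passed were the members with the most counts. Mir199b fell by 0.41 (log2; 95% exact interval -0.46 to -0.36, adjusted p of the exact test 5.76e-56) and Mir140 by 0.30 (-0.34 to -0.26, exact adjusted p 1.97e-46). Mir455 fell by 0.14 (-0.18 to -0.09, exact adjusted p 2.14e-10) and Mir214 by 0.05 (-0.07 to -0.03, exact adjusted p 8.27e-07), though both change sign under another scaling given below. These p-values set separate pools against counting error alone. With edgeR, which takes the spread between the pools as error, the adjusted p was 1.00 for each of the 4 in an exact test.

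Mir199a-1 (-0.40), Mir199a-2 (0.02), Mir218-1 (0.26) and Mir218-2 (0.08) did not pass; their 95% exact intervals were -0.97 to 0.07, -0.12 to 0.17, -0.14 to 0.71 and -0.16 to 0.32. The median log2 ratio of the 8 was -0.09 and that of all 466 genes -0.11. The sizes of the ratios had a median of 0.20 over the 8 and 0.27 over all. Before the added 1 CPM, edgeR's TMM raises every ratio by 0.13 and DESeq2 size factors raise it by 0.16, which moves the median of the 466 genes by 0.10 and 0.11. Mir214 then stood at 0.08 with TMM and 0.11 with DESeq2, and Mir455 at 0.02 with DESeq2, so their direction rests on the scaling.

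**Figure D5:**
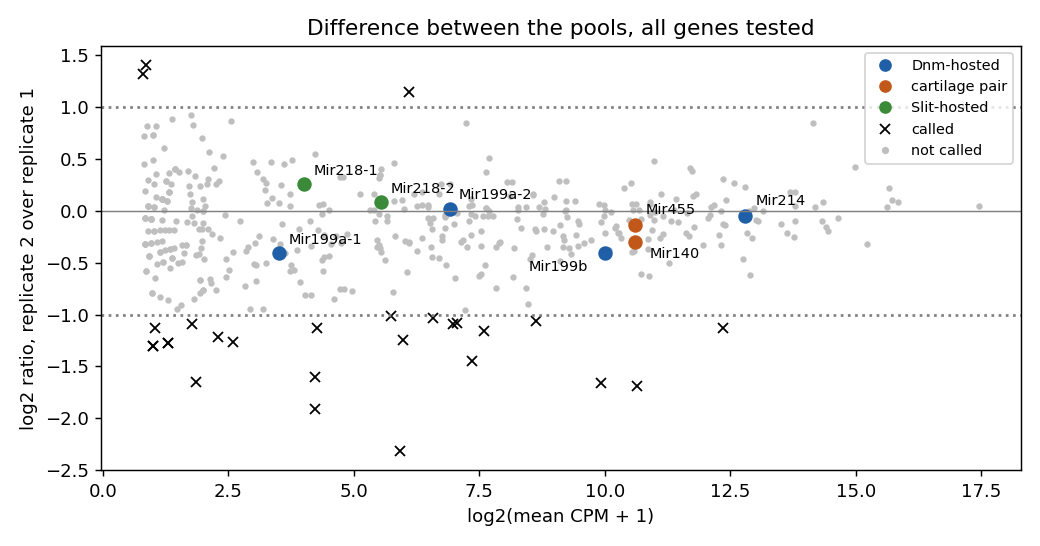
log2 ratio of replicate 2 over replicate 1 against log2(mean CPM + 1) for the 466 genes tested; crosses are called genes, dotted lines the 2-fold limit, and coloured points the 8 genes. The 8 genes lay between -0.41 and 0.26, inside the 2-fold limit, as did 94.2% of all genes tested.

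Markers of other tissues were read in the same libraries. The liver marker Mir122 had 5051 counts in replicate 2 and 14641 in replicate 1, a log2 ratio of -1.69. The red cell list (3 of 3 genes called lower, against 24 of the 466 genes tested) held 0.0345% of counts in replicate 2 and 0.0727% in replicate 1. The smooth muscle list of Mir143 and Mir145a held 18.3% and 17.8%, with 0 of 2 called, against 5.79% of all genes. Its members differed, with log2 ratios of 0.05 for Mir143 and -0.51 for Mir145a. The epithelial list held 8.31% and 7.78%, with 0 of 12 called and a median log2 ratio of -0.02. Within it Mir375 stood at 0.85 and Mir203 at -0.62, both inside the 2-fold limit. The part of such differences in the ratios of the 8 genes was not tested.

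Neuronal markers were read beside miR-218, which motor neurons also express. Of the 8 neuronal genes counted, 4 had at least 10 counts in both libraries. Mir124a-1, Mir124a-2, Mir124a-3 and Mir9-2 were at 0, and they too have copies whose shared reads are not assigned. Mir137 had 7663 counts in replicate 2 and 7979 in replicate 1, and the list held 0.117% and 0.139%. The binomial test called 2 of the 4 tested neuronal genes lower in replicate 2, against 24 of the 466 genes tested. Mir129-1 had 46 counts in replicate 2 and 172 in replicate 1 (log2 ratio -1.91), and Mir129-2 had 55 and 162 (-1.60). The median log2 ratio of the 4 was -0.91, but that of Mir137 was -0.21 and that of the summed CPM of the list -0.26. Mir218-1 stood at 0.26 and Mir218-2 at 0.08. The part of such differences in the miR-218 values was not tested. White blood cell genes held 0.121% and 0.137%, with Mir223 of myeloid cells in the lead, and the endothelial Mir126a held 2.50% and 2.62%. Striated muscle genes held 0.0261% and 0.0198%, most of it Mir206 with 1279 and 635 counts. Of the 5 tested, Mir208a was called lower (13 and 35 counts, log2 ratio -1.22), against the same 24 of 466 genes. The median log2 ratio of the 5 was -0.33. Mir133a-1 and Mir133a-2 were at 0 and, as numbered copies, may have lost shared reads too.

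Other miRNA genes known from fibroblasts, connective tissue, matrix or cartilage were measured alongside. Of 25 such genes, 22 reached 10 counts in each library and 22 were tested. The list held 11.4% of counts in replicate 2 and 11.1% in replicate 1, with a median level of 553 CPM. Mir335, in the mesoderm gene Mest, averaged 51690 ± 5645 CPM, Mir322 20626 ± 1030, Mir21a 12668 ± 1309, Mir127 9049 ± 11.8 and Mir100 7093 ± 797 (SD, n = 2). Mir214, at 7072 ± 173 CPM, was thus close to Mir100. Between the pools 1 of the 22 was called, against the 5.79% background. This was Mir574, lower in replicate 2 with 786 against 1581 counts, and it was named after its values were seen. The median log2 ratio of the list was -0.25, beside -0.11 for all genes tested.

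The genes nearest in level over the 2 libraries were found for the 6 of the 8 with at least 100 counts in both, by distance in log2(CPM + 1). Nearest to Mir214 were Mir487b (distance 0.123), of the imprinted Dlk1-Dio3 region, and the epithelial Mir200b (0.129). Mir140 and Mir455 were each among the other's 2 nearest (0.115), beside Mir483 (0.083), which lies in Igf2, for Mir140 and Mir192 (0.118) for Mir455. Mir199b was nearest to Mir107 (0.109) and Mir96 (0.138), Mir199a-2 to Mir20b (0.106) and Mir410 (0.143), and Mir218-2 to Mir760 (0.095) and Mir302d (0.187). With 2 libraries this is likeness of level only.

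Opposite-strand counts at the 8 genes were 0, except 1 count at Mir214 in replicate 2.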

How the data were processed

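The authors deposited 1 table of whole-number read counts per miRNA gene for each library, for mm10 and GENCODE M4 per the file descriptions. How reads were trimmed, aligned and counted is not given in the sources used. Per the tables, unmapped reads, multi-mapping reads and reads outside genes stand on lines of their own; these were left out of totals and tests. Unmapped reads were 16.2% in replicate 2 and 18.0% in replicate 1. In gene rows count 1 is count 2 plus count 3; from the values, count 2 was taken as the sense strand.

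Symbols, coordinates and hosts came from GENCODE M21 on the same assembly (1894 of 1973 identifiers matched; the 79 others had 2 sense counts in all), and mature sequences from RefSeq. Levels are CPM over summed sense counts, with SD over 2 pools. Log2 values have 1 CPM added. Intervals are 95% Wilson for shares and exact Clopper-Pearson for ratios. Genes with at least 10 summed counts were tested between the libraries with a two-sided exact binomial test, with calls needing 2-fold and an adjusted p under 0.05. The edgeR exact test used the common dispersion of an intercept-only design (coefficient of variation 0.219). The binomial test was checked on simulated counts that held counting error only, so the check does not cover the spread between pools. The libraries are separate pools: chi-square per degree of freedom was 204 over 466 genes and Pearson's r across genes 0.994.

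Named were the 8 genes, the 2 nearest in level of those with 100 counts in both libraries, and up to 5 top genes of each list. The members and lists were chosen with earlier results of these data known. Alternatives covered scaling, denominator, count minimum, fold limit, pseudocount, strand, copies, test and leaving out each replicate. Mir9-1, Mir142 and Mir1a-2 were in the marker lists, but no counted gene was found under these symbols, so they were not analysed here. Software was edgeR 4.0.16 and DESeq2 1.42.0 in R 4.3.3, and scipy 1.17.1, numpy 2.4.6, matplotlib 3.10.9 and pandas 2.3.3 in Python 3.11.15.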

Additional observations from a re-analysis of the deposited data

Results flagged for a closer look

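Reads that matched several places numbered 3406967 in replicate 2 and 2946663 in replicate 1, far above the limit of a zero count, and entered no comparison. Of the 8 genes, 5 carry a mature sequence that another hairpin also holds. How many of these reads come from miR-199a, miR-199b-3p or miR-218-5p was not tested.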

How the results depend on the processing

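With all reads as denominator, the share of the 8 genes became 0.596%, that of the Dnm-hosted set 0.430%, of the cartilage pair 0.163% and of the Slit-hosted pair 0.00319%, by construction, since more reads are divided by. Leaving out either replicate gave 1.09% to 1.19% for the 8 genes. With the Mir199a copies summed, Mir214 exceeded them by 5.76 on the log2 scale, and with a pseudocount of 5 Mir218-2 exceeded Mir218-1 by 1.33. Of all genes, 27 were called between replicate 2 and replicate 1; this became 16 when 100 summed counts were required, where fewer genes are tested, 13 with a pseudocount of 5, 4 with the edgeR exact test and 216 with no fold limit. Of the 8 genes, 4 passed with no fold limit and 0 under the other alternatives run, which kept the 2-fold limit. With log2 ratios of -0.41 to 0.26, far inside that limit, the 0 calls could hardly have come out otherwise. Mir214 changed sign to 0.08 with TMM and 0.11 with DESeq2 size factors, and Mir455 to 0.02 with DESeq2 size factors. No paired analysis was possible because there is 1 group. The ratio between the pools needs both libraries, so leaving out a replicate gave no value for it. Depth limits Mir199a-1 and Mir218-1, with 59 to 111 counts each.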
